A study of Mus musculus with 10 samples.

Results

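The innate immune receptors that read microbial products in the intestine were followed as a set of 10 genes of the Toll-like and NOD-like receptor pathways, taken by symbol from 35275 counted gene IDs. The set held the Toll-like receptors *Tlr2*, *Tlr3*, *Tlr4*, *Tlr5* and *Tlr9*, the NOD-like receptors *Nod1*, *Nod2*, *Nlrp6* and *Nlrc4*, and the adaptor *Myd88*. Each symbol matched 1 Ensembl gene ID, and all 10 genes passed the filter on low counts. RNA-seq counts came from pieces of proximal intestine of 5 wild-type (WT) and 5 knockout (KO) mice, with 1 library per mouse, and the mutated gene was *Slc39a14*, which encodes the zinc and metal transporter ZIP14. Mice of both groups were 8 to 10 weeks old in the sample labels, while the paper states a wider age range and mice of both sexes, and 4 Y-linked genes together had at most 0.0638 CPM (counts scaled to library size) in any of the 10 libraries. The labels give the genotype only as WT or KO. The methods and results of the paper describe the sequenced KO mice as null in the whole body and bred with their WT controls from heterozygous parents, whereas the series title and other passages of the paper speak of an enterocyte-specific deletion, and the counts do not tell which of these was sequenced. No treatment was given to either group in the labels.

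Toll-like receptors are membrane proteins that bind microbial lipids, proteins or nucleic acids, and most of them signal through the adaptor MyD88 to NF-kB, whereas TLR3 signals through TRIF. NOD-like receptors sit in the cytosol, where NOD1 and NOD2 bind fragments of bacterial peptidoglycan and signal through RIPK2, and NLRP6 and NLRC4 can assemble inflammasomes that activate caspase-1. In the intestine these receptors are found in epithelial cells and in immune cells of the mucosa, and they are known for balancing tolerance of the microbiota against defence.

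The proportion of all genes that differed between the groups was large, and the tissue markers differed as well. edgeR's quasi-likelihood test called 4660 of 15610 tested genes at an adjusted p under 0.05 (29.9%), of which 2491 were higher in KO mice (16.0%) and 2169 were lower (13.9%). The ranges of WT and KO libraries were apart in 21.1% of tested genes. Levels are given as CPM, the count of a gene scaled to the adjusted total of its library. *Slc39a14* had 260.4 ± 62.5 CPM in WT and 102 ± 32.9 CPM in KO mice (SD, n = 5 each), and KO replicate 1 at 160.1 CPM lay above the 78.5 to 93.8 CPM of the other KO libraries. Of 5 markers of the labelled tissue, *Gata4* was lower in KO mice (189 ± 24.4 and 16.1 ± 24.8 CPM, edgeR adjusted p = 0.0177). *Lct*, which makes up most of their summed level in WT libraries, lay at 3363 to 3783 CPM in WT and 0.315 to 702 CPM in KO libraries without overlap but did not pass (edgeR adjusted p = 0.0632), *Slc40a1* (20.6 and 32.6 CPM) and *Cybrd1* (9.52 and 7.64 CPM) did not pass, and *Pdx1* was not tested. The summed level of the 5 genes was 3603 to 3966 CPM in WT and 33.3 to 797 CPM in KO mice, with KO replicate 1 the highest of the latter. The summed level of 5 genes of ileum was 199 to 237 CPM in WT and 3245 to 10499 CPM in KO mice. Summed smooth muscle markers were 1220 to 2182 CPM in WT and 3276 to 9979 CPM in KO mice, and those of absorptive enterocytes were 31379 to 43941 and 11712 to 28798 CPM. Genotype, the position along the intestine that these markers follow and the cell makeup of the pieces therefore cannot be told apart in any difference between the groups.

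**Figure D1:**
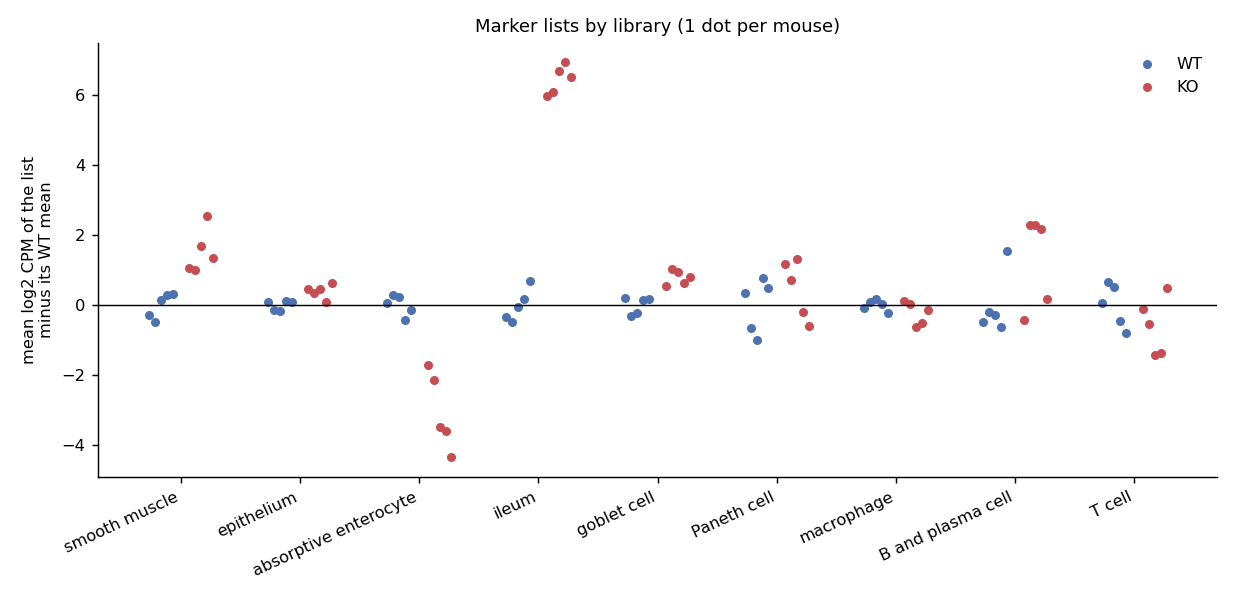
Mean log2 CPM of the genes of a marker list minus the WT mean of that list, with 1 point per library for 5 WT and 5 KO mice. Smooth muscle and ileum lists lie higher in all KO libraries and the absorptive enterocyte list lies lower. The macrophage list overlaps (summed level 380.1 to 486.6 CPM in WT, 329.9 to 490.1 CPM in KO mice), and the proximal intestine list is not drawn.

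Of the 10 genes, 3 were higher in KO mice by edgeR's quasi-likelihood test with Benjamini-Hochberg adjustment over all tested genes, beside a background of 16.0%. These were *Tlr2*, *Tlr4* and *Nod1*. None of the 10 was lower with edgeR, at an unadjusted p under 0.05 or with DESeq2 (0 of 10 in each), beside 13.9% of all tested genes. In 2 of the 10, *Tlr2* and *Nod1*, the ranges of WT and KO libraries were apart, beside 21.1% of tested genes. The median log2 fold change of the 10 genes was 0.21, and that of all tested genes was 0.03. A change in the number of cells that express a gene and a change in its RNA per cell cannot be told apart in counts from whole tissue. This holds for each difference below, in either direction.

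**Figure D2:**
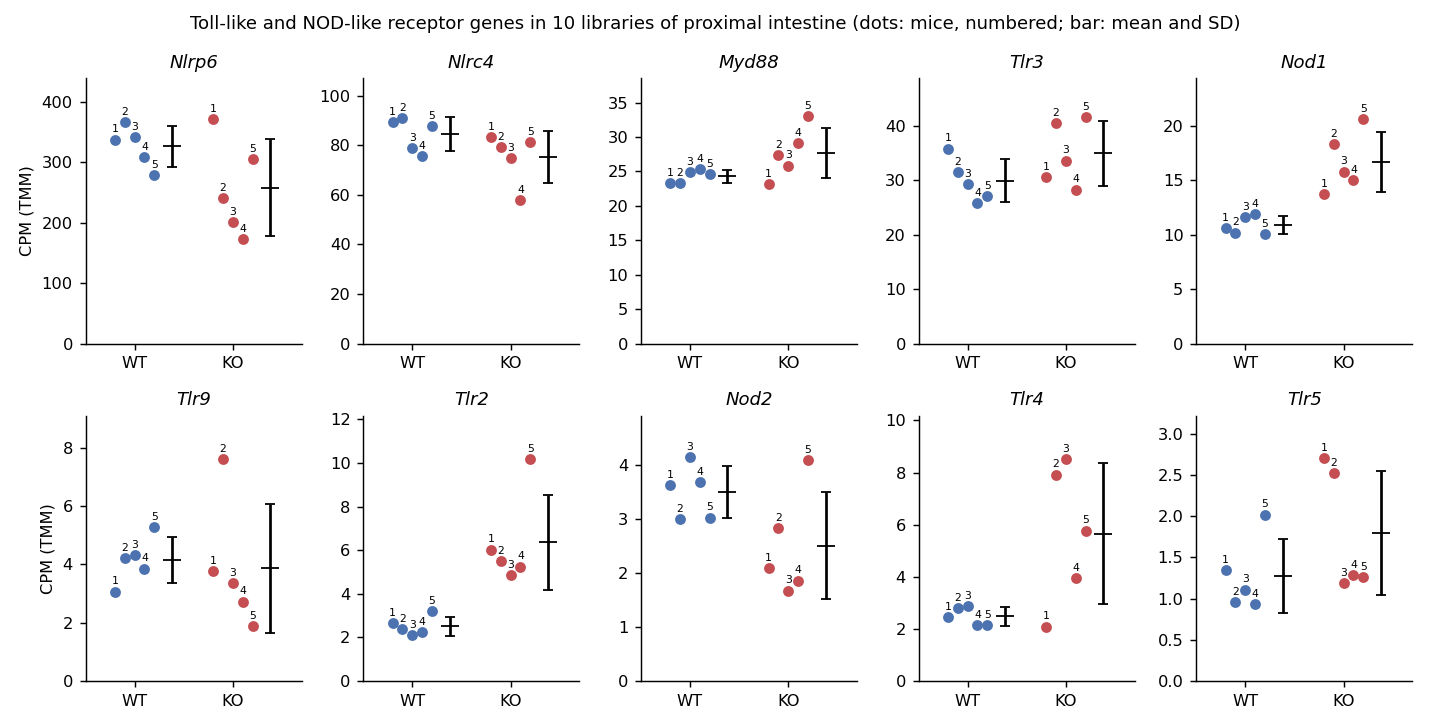
Level of each of the 10 genes in CPM, with 1 point per library, the mean as a bar and the SD as a whisker (n = 5 per group). *Tlr2* and *Nod1* show no overlap between the groups, and *Tlr4* shows KO replicate 1 at 2.08 CPM below the WT libraries.

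The 300 bases around the start of *Tlr2*, *Nod1*, *Myd88* and *Nlrp6* are shown because they hold contrasting sets of motifs for the transcription factors at the end of these pathways. The first pair belongs to the genes whose groups did not overlap, *Myd88* is the shared adaptor and *Nlrp6* is the most abundant of the 10. The sequences are those of RefSeq on GRCm38.p6, run 5′ to 3′ on the strand of the gene, and reach from 250 bases before to 50 bases after the start that RefSeq annotates, which can differ from the GENCODE gene positions given here, so that the *Myd88* window lies wholly inside the GENCODE gene. They are from chr3:83841559-83841858 (minus strand) for *Tlr2*, chr6:54972563-54972862 (minus strand) for *Nod1*, chr9:119339969-119340268 (minus strand) for *Myd88* and chr7:140920652-140920951 (plus strand) for *Nlrp6*. Capitals mark matches on either strand to the NF-kB motif or to the motif of interferon regulatory factors (IRF), and neighbouring or overlapping matches run together.
Tlr2: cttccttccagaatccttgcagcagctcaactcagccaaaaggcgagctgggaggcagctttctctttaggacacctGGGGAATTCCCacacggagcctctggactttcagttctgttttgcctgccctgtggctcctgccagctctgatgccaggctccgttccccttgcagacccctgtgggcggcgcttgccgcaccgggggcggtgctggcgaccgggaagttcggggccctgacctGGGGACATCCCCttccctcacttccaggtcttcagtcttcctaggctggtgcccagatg
Nod1: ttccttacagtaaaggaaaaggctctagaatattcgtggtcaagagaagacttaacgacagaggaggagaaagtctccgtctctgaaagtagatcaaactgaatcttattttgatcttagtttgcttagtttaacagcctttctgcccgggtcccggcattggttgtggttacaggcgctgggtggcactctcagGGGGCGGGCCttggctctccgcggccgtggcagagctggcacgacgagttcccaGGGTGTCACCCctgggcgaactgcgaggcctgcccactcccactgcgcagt
Myd88: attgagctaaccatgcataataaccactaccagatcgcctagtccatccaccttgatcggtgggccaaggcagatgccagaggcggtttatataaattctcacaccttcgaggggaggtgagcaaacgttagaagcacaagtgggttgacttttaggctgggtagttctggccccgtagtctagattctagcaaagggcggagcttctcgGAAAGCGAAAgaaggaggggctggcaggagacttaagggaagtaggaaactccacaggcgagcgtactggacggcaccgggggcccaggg
Nlrp6: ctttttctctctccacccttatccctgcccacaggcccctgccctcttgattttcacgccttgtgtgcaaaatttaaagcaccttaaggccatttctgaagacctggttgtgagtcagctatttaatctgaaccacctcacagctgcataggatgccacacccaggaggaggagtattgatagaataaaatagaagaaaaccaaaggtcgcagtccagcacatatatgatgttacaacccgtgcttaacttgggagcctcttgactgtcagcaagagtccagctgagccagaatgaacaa

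Promoter windows were found for 9 of the 10 genes, with 2 windows for *Nod1*, and *Tlr4* had no entry. The NF-kB motif was searched as 3 G, 5 bases of any kind and 2 C, and the IRF motif as GAAA, 2 bases of any kind and GAAA, each on both strands. The NF-kB motif was present in 5 of the 10 windows, those of *Tlr2*, *Tlr3*, *Tlr5*, *Nod2* and the upstream *Nod1* start, while 50.8% of all 32851 promoter windows held it. The IRF motif was present only in the window of *Myd88* (1 of 10), starting 40 bases before the start site, and in 3.44% of all windows. Motifs of factors that set intestinal identity were searched as well, namely TTTAT for CDX2, AGATAA for GATA factors and CAAAG for HNF4A. They were found in 4, 2 and 8 of the 10 windows, beside 40.01%, 11.2% and 53.9% of all windows. The CDX2 match of *Tlr3* overlaps its GATA match, and the 2 CDX2 matches of *Myd88* lie next to each other on opposite strands. These matches are descriptions of letters and say nothing of binding.

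TLR2, the product of *Tlr2*, pairs with TLR1 or TLR6 at the cell surface and binds bacterial lipoproteins. The gene (ENSMUSG00000027995) is located at chr3:83836272-83841767 (minus strand) and has 3 exon blocks. WT replicates 1 to 5 had 2.65, 2.36, 2.10, 2.25 and 3.19 CPM, and KO replicates 1 to 5 had 6.03, 5.51, 4.86, 5.24 and 10.2 CPM. Every KO library was above every WT library, and KO replicate 5 was well above the other KO libraries. The level was 2.53-fold higher in KO mice (log2 fold change 1.34, SE 0.23, 95% interval 0.83 to 1.85, adjusted p = 0.00251 with edgeR). Without KO replicate 5 the log2 fold change was 1.10 (adjusted p = 0.00272 with edgeR). The call was lost with the epithelium score (0.80, adjusted p = 0.0763 with edgeR) or the smooth muscle score (1.55, 0.205) as a covariate.

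*Tlr4* encodes the receptor for lipopolysaccharide of Gram-negative bacteria, and is located at chr4:66827584-66930284 (plus strand). The WT libraries held 2.44, 2.81, 2.86, 2.14 and 2.13 CPM, and the KO libraries held 2.08, 7.92, 8.53, 3.96 and 5.77 CPM. Here 4 of 5 KO libraries lay above all WT libraries, and KO replicate 1 lay below all of them. The log2 fold change was 1.19 (SE 0.33, 95% interval 0.45 to 1.93, adjusted p = 0.0221 with edgeR). The adjusted p was 0.0505 without WT replicate 1 and 0.0556 without KO replicate 3, with log2 fold changes of 1.18 and 0.98. The library that lay lowest, KO replicate 1, was also the KO library with the highest level of the proximal intestine markers and of *Slc39a14*, and the part of this in its *Tlr4* level was not tested.

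*Tlr5*, the receptor for bacterial flagellin, was the least abundant of the 10. It is located at chr1:182954788-182976044 (plus strand). Its counts were 15 to 36 per WT library and 22 to 48 per KO library. WT libraries had 1.35, 0.957, 1.11, 0.934 and 2.02 CPM, and KO libraries had 2.70, 2.52, 1.19, 1.29 and 1.26 CPM. KO replicates 1 and 2 lay above all WT libraries and the other KO libraries lay within the WT range. The log2 fold change of 0.49 (SE 0.33) had a 95% interval of -0.24 to 1.21 and did not pass (adjusted p = 0.278 with edgeR). The CV over libraries, the SD as a percentage of the mean, was 35.2% in WT and 42.0% in KO mice, where counting alone would give 21.0% and 17.2%.

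The receptors of the endosome, *Tlr3* for double-stranded RNA and *Tlr9* for unmethylated CpG DNA, did not pass the test. *Tlr3* is located at chr8:45395665-45411080 (minus strand). It had 35.9, 31.5, 29.3, 25.9 and 27.1 CPM in WT and 30.6, 40.6, 33.6, 28.3 and 41.6 CPM in KO libraries. KO replicates 2 and 5 lay above the WT range and the other KO libraries within it, and the log2 fold change was 0.22 (SE 0.13, 95% interval -0.07 to 0.52, adjusted p = 0.219 with edgeR). A gene on the opposite strand, *Gm45542*, shares 381 exon bases with *Tlr3* but has no ID among those counted. *Tlr9*, located at chr9:106222598-106226883 (plus strand), had 3.06, 4.21, 4.32, 3.85 and 5.27 CPM in WT and 3.77, 7.61, 3.35, 2.72 and 1.89 CPM in KO libraries. The KO libraries lay on both sides of the WT range, with replicate 2 above and replicates 4 and 5 below. Its log2 fold change was -0.10 (SE 0.33, 95% interval -0.83 to 0.63, adjusted p = 0.844 with edgeR). With any single library left out it lay between -0.50 and 0.07 and did not pass (adjusted p of 0.138 or more with edgeR). Markers of B and plasma cells, which use TLR9, varied too, between 446.3 and 1432 summed CPM in KO and between 795 and 1359 in WT libraries, and their part was not tested.

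*Myd88* encodes the adaptor that links most of these receptors to the IRAK kinases. It is located at chr9:119335934-119341411 (minus strand), where 290 of its exon bases are shared with *Acaa1a* on the opposite strand, so that reads of the one may have been counted for the other. It had 23.4, 23.3, 24.9, 25.3 and 24.6 CPM in WT libraries, which is the smallest relative spread of the 10 genes. KO libraries had 23.2, 27.3, 25.9, 29.1 and 33.0 CPM. The 4 KO replicates 2 to 5 lay above all WT libraries and KO replicate 1 below them. The log2 fold change was 0.19 (SE 0.10, 95% interval -0.03 to 0.41, adjusted p = 0.173 with edgeR). When libraries were scaled to their total only, it was 0.31 and passed (adjusted p = 0.0484 with edgeR), a scaling that also moved the median of all tested genes from 0.03 to 0.15 and the share of higher genes among calls from 53.5% to 69.4%.

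*Nod1*, the cytosolic receptor for peptidoglycan fragments with diaminopimelic acid, was the most abundant of the 3 genes that were higher in KO mice. It is located at chr6:54923949-54972612 (minus strand). WT libraries had 10.6, 10.2, 11.6, 11.9 and 10.1 CPM and KO libraries had 13.7, 18.3, 15.8, 15.01 and 20.7 CPM. All KO libraries were above all WT libraries. The level was 1.54-fold higher (log2 fold change 0.62, SE 0.13, 95% interval 0.34 to 0.90, adjusted p = 0.00573 with edgeR), and the adjusted p was 0.0193 at most when any single library was left out. The call was lost with the epithelium score (log2 fold change 0.48) or the smooth muscle score (0.71) as a covariate, with adjusted p of 0.112 and 0.258 with edgeR, as were those of *Tlr2* (0.80 and 1.55) and *Tlr4* (1.24 and 1.51).

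*Nod2*, which binds muramyl dipeptide, is strongly expressed in Paneth cells and in myeloid cells. It is located at chr8:88647315-88688474 (plus strand). WT libraries had 3.63, 2.998, 4.14, 3.68 and 3.03 CPM, and KO libraries had 2.08, 2.83, 1.67, 1.86 and 4.09 CPM. KO replicates 1 to 4 lay below all WT libraries, and KO replicate 5 lay near the top of the WT range. The log2 fold change was -0.48 (SE 0.25, 95% interval -1.04 to 0.08, adjusted p = 0.172 with edgeR). Without KO replicate 5 it was -0.73 and passed (adjusted p = 0.0276 with edgeR). None of the 6 Paneth cell markers was called by edgeR, with 2 higher at an unadjusted p under 0.05 and 1 higher with DESeq2. Their summed level was 7075 to 21181 CPM in WT and 6564 to 26574 CPM in KO mice, and the part of these cells was not tested.

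*Nlrp6*, an inflammasome sensor known from intestinal epithelium, was the most abundant of the set. It is located at chr7:140920902-140929192 (plus strand). WT libraries had 337, 366, 342, 309 and 278 CPM, and KO libraries had 372, 240.4, 201, 173 and 305 CPM. KO replicates 2, 3 and 4 lay below all WT libraries, replicate 5 within their range, and replicate 1 above it. The log2 fold change was -0.34 (SE 0.19, 95% interval -0.76 to 0.09, adjusted p = 0.199 with edgeR). Without KO replicate 1 it was -0.51 and passed (adjusted p = 0.0363 with edgeR).

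*Nlrc4* encodes the inflammasome component that acts downstream of the NAIP sensors of flagellin and of bacterial secretion systems. It is located at chr17:74425438-74459142 (minus strand). It had 89.5, 91.0, 79.0, 75.6 and 87.6 CPM in WT and 83.5, 79.3, 74.8, 57.8 and 81.5 CPM in KO libraries. KO replicates 3 and 4 lay below the WT libraries and the others lay within their range. The log2 fold change was -0.17 (SE 0.11, adjusted p = 0.259 with edgeR), and its 95% interval of -0.40 to 0.07 does not include a fall of more than 0.40 or a rise of more than 0.07 on the log2 scale.

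**Figure D3:**
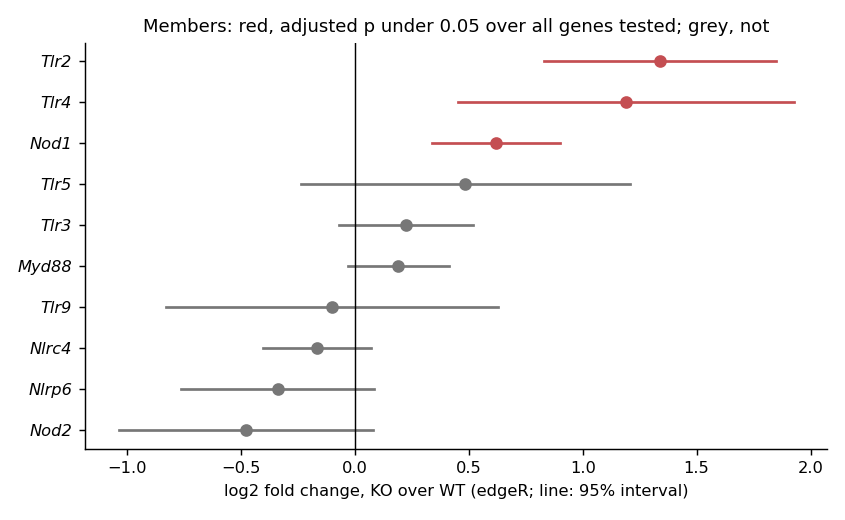
Log2 fold change of each of the 10 genes in KO against WT mice, with the 95% interval of edgeR's quasi-likelihood fit (n = 5 each). The intervals of *Tlr2*, *Tlr4* and *Nod1* lie above 0, and those of the other genes include 0.

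Levels were compared between genes after division by the exon length, as CPM per kilobase. In WT mice *Nlrp6* led with 64.3 ± 6.63 CPM per kilobase, above 94.4% of the tested genes. *Nlrc4* followed with 17.6 ± 1.42, *Myd88* with 9.43 ± 0.36, *Tlr3* with 5.75 ± 0.76 and *Nod1* with 2.14 ± 0.16 CPM per kilobase (SD, n = 5), and the ranges of these neighbours did not overlap. Below them came *Tlr9* with 1.19 ± 0.23, *Tlr2* with 0.83 ± 0.14 and *Nod2* with 0.70 ± 0.10 CPM per kilobase. The range of *Tlr2* overlapped those of both *Tlr9* and *Nod2*, and the range of *Nod2* did not overlap that of *Tlr4*, the next gene. *Tlr4* with 0.45 ± 0.06 and *Tlr5* with 0.27 ± 0.09 CPM per kilobase closed the order with overlapping ranges, above 11.5% and 6.37% of the tested genes. In KO mice the first 5 genes had the same order by their means, but the ranges of *Nlrc4* (12.0 to 17.4) and *Myd88* (9.01 to 12.8 CPM per kilobase) overlapped. *Tlr2* with 2.11 ± 0.72 CPM per kilobase then preceded *Tlr9* with 1.11 ± 0.63, and *Tlr4* with 1.02 ± 0.48 preceded *Nod2* with 0.50 ± 0.20, with ranges that overlapped from *Nod1* down to *Tlr5*.

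**Figure D4:**
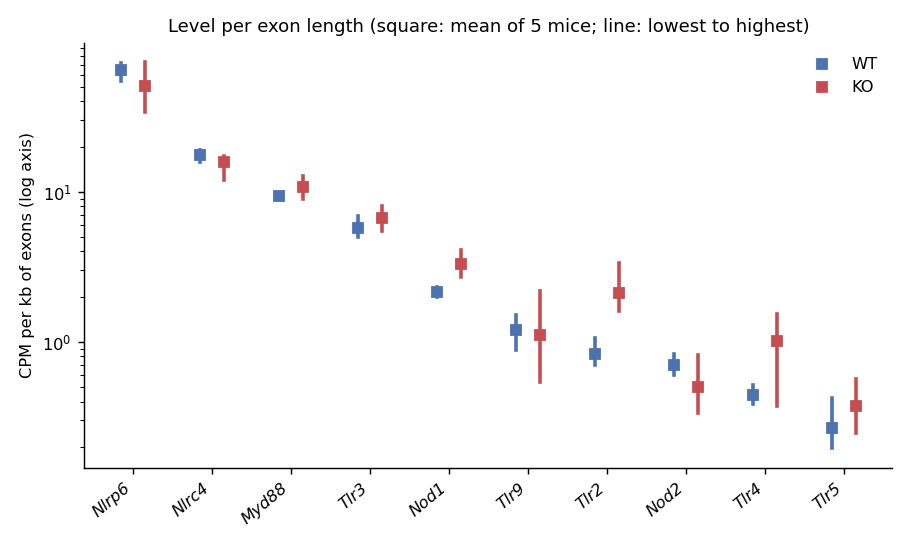
Level of the 10 genes in CPM per kilobase of exon (log axis) for 5 WT and 5 KO libraries, ordered by the WT mean. *Nlrp6* lies highest at 64.3 in WT mice and *Tlr5* lowest at 0.27.

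The KO libraries were more scattered than the WT libraries for each of the 10 genes. The CV was larger in KO mice in 10 of 10, and in 76.9% of all tested genes, which is given as a description without a test. For *Tlr4* it was 14.1% in WT and 47.7% in KO mice, and counting alone would give 15.2% and 9.63%. For *Tlr9* it was 19.3% and 57.1%, for *Nlrp6* 10.3% and 31.2%, and for *Myd88* 3.83% and 13.2%. The WT scatter of *Tlr4* and *Myd88* was thus within what counting gives, whereas the KO scatter was above it. The marker lists were scattered as well, and the proximal intestine list ranged from 33.3 to 797 CPM among KO libraries.

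The genes whose pattern over the 10 libraries was closest to a called receptor were found from log2 CPM centred on each gene's mean, by the root mean square difference. Closest to *Tlr2* were *Bspry* (0.24), *1500009L16Rik* (0.25) and *Krt19* (0.25, a keratin of epithelial cells), while *Tlr2* itself deviated from its own mean by 0.70. Closest to *Tlr4* were *Capg* (0.18, an actin-capping protein), *Snrnp25* (0.29) and *Oas1g* (0.30, an interferon-induced gene), with 0.73 for *Tlr4* itself. Close to *Nod1* were *Tmed9* (0.09, a cargo receptor of the secretory pathway) and *Arpc1b* (0.10, a subunit of the Arp2/3 complex), with 0.34 for *Nod1* itself. These are likenesses across libraries that also share the group difference.

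The partners of the receptors were taken from 7 lists of 71 pathway genes, of which 65 were tested. 10 were higher in KO mice, beside a background of 16.0%, and 10 were lower, beside 13.9%. Their median log2 fold change was -0.01, and that of all tested genes was 0.03. Genes of these lists that are named only because they were called were chosen after their values were seen, and these are *Tlr7*, *Tlr11*, *Irak2*, *Tab3*, *Il1rl1*, *Card9*, *Nek7*, *Nlrx1* and *Nlrc5*.

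**Figure D5:**
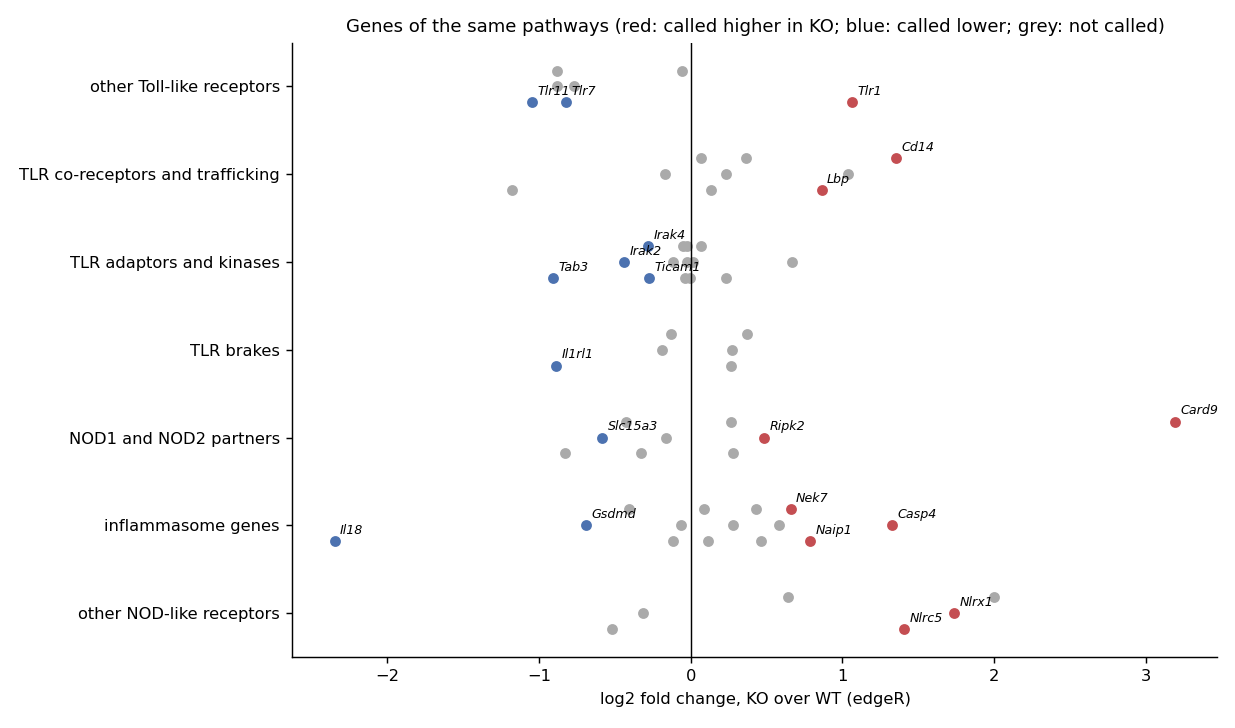
Log2 fold change in KO against WT mice of the tested genes of each of the 7 pathway lists, with 1 point per gene and filled colour for genes called by edgeR's quasi-likelihood test. Called genes lie on both sides of 0, from *Il18* at -2.35 to *Card9* at 3.19.

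Among the co-receptors of TLR2 and TLR4, *Cd14* had the largest log2 fold change in either direction in edgeR's fit. CD14 is a surface protein that passes lipopolysaccharide and lipopeptides to these receptors. It had 5.29, 5.17, 4.96, 5.66 and 5.94 CPM in WT and 10.1, 16.5, 12.7, 15.9 and 14.0 CPM in KO libraries. The groups were far from overlapping, and the log2 fold change was 1.35 (SE 0.15, adjusted p = 0.000286 with edgeR). *Lbp*, the lipopolysaccharide-binding protein, was higher in KO mice as well (log2 fold change 0.86, SE 0.26, adjusted p = 0.0307 with edgeR), and *Ly96*, which encodes the TLR4 partner MD-2, was at 0.23 (adjusted p = 0.447 with edgeR). Of the 9 co-receptor and trafficking genes 2 were higher and none was lower with edgeR, beside 16.0% and 13.9% of all tested genes, with 1 lower at an unadjusted p under 0.05 and 1 lower with DESeq2. *Unc93b1*, which carries nucleic acid-sensing TLRs and TLR5 from the endoplasmic reticulum, had a log2 fold change of 0.07 (edgeR adjusted p = 0.648).

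Of the 7 other Toll-like receptors 1 was higher, beside 16.0% of all tested genes, and 2 were lower, beside 13.9%, with 3 lower both at an unadjusted p under 0.05 and with DESeq2. *Tlr1*, a partner of *Tlr2*, had 7.27, 6.25, 5.19, 5.72 and 9.19 CPM in WT and 6.70, 15.7, 15.8, 8.29 and 23.6 CPM in KO libraries. KO replicates 2, 3 and 5 lay above the WT range and the others within it (log2 fold change 1.06, SE 0.32, adjusted p = 0.0294 with edgeR). With the epithelium score as a covariate its log2 fold change was 0.30 and did not pass (adjusted p = 0.640 with edgeR). The other TLR2 partner, *Tlr6*, had a log2 fold change of -0.06 (edgeR adjusted p = 0.881). *Tlr7*, a receptor for single-stranded RNA, was lower in all KO libraries, with 2.58 to 3.79 CPM in WT and 1.29 to 2.52 CPM in KO mice (log2 fold change -0.82, adjusted p = 0.0164 with edgeR). *Tlr11*, which senses profilin of parasites, was lower too (log2 fold change -1.05, adjusted p = 0.0246 with edgeR), with KO replicate 1 at 2.37 CPM within the WT range of 1.87 to 2.998 CPM.

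Of 15 adaptors and kinases downstream of the Toll-like receptors 14 were tested. Of these 4 were lower, beside 13.9% of all tested genes, and none was higher with edgeR or with DESeq2, with 1 higher at an unadjusted p under 0.05. *Ticam1*, which encodes the TLR3 adaptor TRIF, had a log2 fold change of -0.27 (edgeR adjusted p = 0.0348). For *Irak4*, the first kinase recruited by MyD88, it was -0.28 (adjusted p = 0.0253 with edgeR). *Irak2* (-0.44) and *Tab3* (-0.91, a subunit of the TAK1 complex) were lower as well, with adjusted p of 0.00332 and 0.00123 with edgeR. All KO libraries lay below all WT libraries for these 4 genes, while the groups were apart in 21.1% of all tested genes. With libraries scaled to their total only, *Ticam1* (-0.15, adjusted p = 0.137 with edgeR) and *Irak4* (-0.16, 0.0917) did not pass. *Irak1* and *Traf6*, which stand between MyD88 and TAK1, had log2 fold changes of -0.05 and 0.07 and did not pass. The adaptor *Tirap* (-0.12) did not pass either, and *Ticam2* was below the filter. Of 6 brakes of the pathway 1 was called, *Il1rl1*, lower at a log2 fold change of -0.89 (edgeR adjusted p = 0.0284), beside 13.9% of all tested genes. At an unadjusted p under 0.05 with edgeR 2 were higher and 2 lower, and with DESeq2 none was higher and 1 was lower. *Tollip* (-0.19) and *Sigirr* (0.27) did not pass. With libraries scaled to their total only, *Sigirr* was higher (0.39, adjusted p = 0.0383 with edgeR).

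Of 9 partners of NOD1 and NOD2 2 were higher and 1 was lower, beside 16.0% and 13.9% of all tested genes, with 3 lower both at an unadjusted p under 0.05 and with DESeq2. *Ripk2*, the kinase that both receptors recruit, had 4.93, 4.47, 4.14, 5.22 and 5.72 CPM in WT and 6.70, 4.88, 7.93, 7.62 and 7.13 CPM in KO libraries. KO replicate 2 lay within the WT range and the others above it (log2 fold change 0.48, SE 0.17, adjusted p = 0.0464 with edgeR). *Card9*, an adaptor of fungal recognition that also works with NOD2, had 2.18 to 3.44 CPM in WT and 12.8 to 48.5 CPM in KO libraries (log2 fold change 3.19, SE 0.41, adjusted p = 0.000543 with edgeR). *Slc15a3*, a transporter that carries muramyl dipeptide out of endosomes, was lower (log2 fold change -0.58, adjusted p = 0.0406 with edgeR), but did not pass with libraries scaled to their total only (-0.46, adjusted p = 0.0711 with edgeR). *Slc15a1*, the peptide transporter PEPT1 of the enterocyte brush border, had a log2 fold change of -0.83 (edgeR adjusted p = 0.0608), with KO replicate 1 at 895 CPM and the other KO libraries at 306 to 446.1 CPM. *Xiap*, which ubiquitinates RIPK2, had -0.43 (adjusted p = 0.0569 with edgeR) and *Slc15a4* 0.28 (adjusted p = 0.119 with edgeR). DESeq2 called both *Slc15a1* and *Xiap* lower (adjusted p of 0.0228 and 0.0390).

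The inflammasome genes around *Nlrc4* and *Nlrp6* held 3 of 14 genes that were higher and 2 that were lower, near the 16.0% and 13.9% of all tested genes. *Il18*, the cytokine that caspase-1 matures, had 89.5, 96.6, 74.7, 54.4 and 65.9 CPM in WT and 16.8, 19.4, 13.4, 12.1 and 13.2 CPM in KO libraries. Every KO library was far below every WT library, and the level was 5.09-fold lower (log2 fold change -2.35, SE 0.18, adjusted p = 6.66e-05 with edgeR). *Gsdmd*, which encodes the pore-forming gasdermin D, was lower by a log2 fold change of -0.69 (edgeR adjusted p = 0.00475). *Casp4*, the caspase that senses cytosolic lipopolysaccharide, was higher with 8.46 to 17.3 CPM in WT and 21.1 to 65.4 CPM in KO libraries (log2 fold change 1.33, SE 0.32, adjusted p = 0.0118 with edgeR), and with the epithelium score as a covariate it was at 0.51 and did not pass (adjusted p = 0.386 with edgeR). *Nek7* was higher by 0.66 (adjusted p = 0.00482 with edgeR). The NAIP sensors are close copies of each other, and since the read counter is not known, their single values are uncertain. *Naip1* was higher by a log2 fold change of 0.79 (edgeR adjusted p = 0.00634), and *Naip2*, *Naip5* and *Naip6* had 0.12, 0.43 and 0.46 and did not pass. *Pycard* (0.09), *Casp1* (-0.06), *Il1b* (-0.41) and *Nlrp3* (-0.12) did not pass either. With the epithelium score as a covariate *Casp1* was lower (log2 fold change -0.69, adjusted p = 0.0341 with edgeR). In the list of 11 other NOD-like receptors 6 were tested and 2 were higher, *Nlrx1* at 1.73 and *Nlrc5* at 1.40 (adjusted p of 0.000785 and 0.0463 with edgeR), and none was lower with edgeR, with 3 higher and 1 lower at an unadjusted p under 0.05 and 3 higher and 2 lower with DESeq2.

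Several partner calls lay close to the threshold. Leaving out 1 of the 10 libraries in turn ended the call of *Tlr1* in 7 of 10 cases (WT replicates 1 to 4 and KO replicates 2, 3 and 5, adjusted p 0.0554 to 0.0710 with edgeR) and *Ripk2* in 8 (all but WT replicate 5 and KO replicate 2, 0.0596 to 0.111). *Ticam1* lost its call in 7 cases (WT replicates 1, 2, 3 and 5 and KO replicates 2 to 4, 0.0521 to 0.0865), *Slc15a3* in 7 (WT replicates 1 to 4 and KO replicates 3 to 5, 0.0592 to 0.0953) and *Lbp* in 6 (WT replicates 1, 2, 3 and 5 and KO replicates 2 and 4, 0.0500006 to 0.0766). *Irak4* lost it in 4 (WT replicates 1 to 3 and KO replicate 3, 0.0541 to 0.0604), *Tlr11* in 4 (WT replicates 2 and 3 and KO replicates 3 and 4, 0.0501 to 0.0589), *Il1rl1* in 4 (WT replicates 1 to 3 and KO replicate 2, 0.0550 to 0.0736) and *Nlrc5* in 8 (all but KO replicates 1 and 4, 0.0501 to 0.102). In these cases the log2 fold changes of *Ripk2* (0.42 to 0.49), *Ticam1* (-0.29 to -0.23), *Irak4* (-0.29 to -0.27), *Slc15a3* (-0.61 to -0.49), *Lbp* (0.71 to 0.89), *Tlr11* (-1.01 to -0.93), *Il1rl1* (-0.90 to -0.75) and *Tlr1* (0.79 to 1.09) were within 1.5-fold of those with all libraries. *Nlrc5* fell from 1.40 to 0.65 without KO replicate 5. In the opposite direction, *Slc15a1* was lower without KO replicate 1 (log2 fold change -1.20, adjusted p = 0.00259 with edgeR), as was *Tollip* (-0.23, 0.0428). *Xiap* was lower without WT replicate 3 or KO replicate 2 (-0.51 and -0.52, adjusted p of 0.0444 and 0.0374 with edgeR), and *Slc15a4* was higher without KO replicate 5 (0.35, 0.0481).

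Marker lists of cells that carry these receptors were counted beside them, and their counts are read against the 16.0% higher and 13.9% lower of all tested genes. Of 9 macrophage markers none was higher with edgeR and 2 were lower, with 1 higher and 3 lower at an unadjusted p under 0.05 and 0 and 2 with DESeq2, and the summed level overlapped between the groups. Of 6 neutrophil markers 4 were below the filter, with at most 0.233 CPM for *S100a8*, 0.415 for *S100a9*, 0.702 for *Ly6g* and 0.879 for *Cxcr2* in any library, where 3 counts correspond to 0.143 to 0.191 CPM. The other markers, *Retnlg* (3.09 CPM in WT and 3.07 CPM in KO mice) and *Csf3r* (3.29 and 2.27 CPM), were tested and did not pass (edgeR adjusted p of 0.992 and 0.129), and neither had an unadjusted p under 0.05 or was called by DESeq2. Of 7 epithelial markers 4 were higher and none was lower with edgeR or with DESeq2, with 1 lower at an unadjusted p under 0.05, and their summed level was 10919 to 12591 CPM in WT and 12033 to 18131 CPM in KO mice. Of 7 goblet cell markers 5 were higher, and of 8 markers of fibroblasts and endothelium 2 were higher and 1 was lower. Of 6 B and plasma cell and 6 T cell markers none was called with edgeR, with 2 higher and 2 lower respectively at an unadjusted p under 0.05, and 1 higher and 1 lower with DESeq2. With the smooth muscle score as a covariate the log2 fold changes of *Tlr2*, *Tlr4* and *Nod1* were 1.55, 1.51 and 0.71, with adjusted p of 0.205, 0.376 and 0.258 with edgeR, and only 10 of all tested genes were called. With the epithelium score they were 0.80, 1.24 and 0.48, with adjusted p of 0.0763, 0.141 and 0.112 with edgeR, and 2609 genes were called. With the macrophage score *Tlr4* did not pass (log2 fold change 1.05, adjusted p = 0.0899 with edgeR), whereas *Tlr2* and *Nod1* did (adjusted p of 0.00719 and 0.0144).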

How the data were processed

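Libraries of proximal intestine from 5 WT and 5 KO mice were analysed. The values that the authors deposited are unnormalized read counts, 1 for each Ensembl gene ID and library. Per the labels the RNA came from frozen segments kept in RNAlater and libraries were made with a SMARTer mRNA-Seq kit. The submitters' processing notes name FastQC 0.11.9, Trimmomatic, HISAT2 2.0.4, SAMtools 1.3.1 and DESeq2 1.14.1 and the build GRCm38. Which read counter, annotation and strand setting were used is not given in the sources used here, so that reads of overlapping genes on opposite strands may be counted for either. Totals were 16729787 to 20819678 counts in WT and 17118742 to 19414828 in KO libraries, and 3 counts, the most that a count of 0 allows, equal 0.156 to 0.191 CPM in WT and 0.143 to 0.169 CPM in KO libraries, for counting error only. No 2 libraries held the same values, and the methods of the study describe libraries of single mice.

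IDs were named and placed with GENCODE M21 (GRCm38), which left 785 of 35275 without a symbol. CPM used TMM-scaled library sizes, and log2 CPM a prior count of 2. Groups were compared in R 4.3.3 with edgeR 4.0.16 (glmQLFit, glmQLFTest) on 15610 genes that passed filterByExpr at its minimum count of 10 and minimum total of 15, and p-values were adjusted by Benjamini-Hochberg and called under 0.05. Intervals are 95% intervals of that fit. The fit was tested on simulated data with known changes. Alternatives were RLE or library size scaling, DESeq2 1.42.0, testing without a filter or with a mean count of 10 or more, robust dispersion, the replicate number as a block, a score of smooth muscle, epithelium, macrophage or Y-linked genes as a covariate, and leaving out each library. Named were the 10 genes, *Slc39a14*, 30 direct partners chosen by role, and the 3 genes closest in pattern to each called receptor. A gene that the last rule named is not reported here. The 10 genes and all lists were chosen with earlier results of these data known.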

Additional observations from a re-analysis of the deposited data

Results flagged for a closer look

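A library was far from the other 4 of its group in 5 of 100 groups, over 50 named genes with WT and KO mice taken apart, and chance alone would flag about as many. The gap to the nearest library, as a share of the range of the group, was above the critical value of Dixon's test for 5 samples, 0.71. Among the 10 receptor and adaptor genes this was so in 1 of 20 groups. It was *Tlr2* in KO mice, where replicate 5 had 10.2 CPM, the nearest library 6.03 and the lowest 4.86 CPM (gap over range 0.78). *Nlrc5* in KO mice was at 66.4 CPM in the same library, with 20.7 CPM in the nearest (0.80). KO replicate 1 was the highest KO library for the other flagged genes. *Slc15a1* was at 895 CPM with 446.1 CPM in the nearest (0.76), *Tlr11* at 2.37 CPM with 1.26 CPM in the nearest (0.73), and *Slc39a14* at 160.1 CPM with 93.8 CPM in the nearest (0.81). Whether these libraries differ in tissue position or in genotype was not tested.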

How the results depend on the processing

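Over 21 alternatives to each of the 10 log2 fold changes (210 values), 201 kept their sign, 9 calls were lost and 3 were gained, and none of the called values changed sign. For 39 other genes, 32 of 819 values changed sign, and of called genes only *Nlrc5* did, at -0.090 with the epithelium score as a covariate. The smooth muscle score differed between the groups without overlap, so that group and score were hard to separate in that fit. There 0 of the 10 genes, 0 higher and 0 lower pathway genes and 10 of all tested genes were called, and *Slc39a14* itself had an adjusted p of 0.499. With the epithelium score 0 of the 10 genes were higher, 5 pathway genes were higher and 5 lower, and 2609 genes were called in all. That score was 10.09 to 10.36 in WT and 10.35 to 10.88 in KO libraries, with only KO replicate 4 within the WT range. Group and score were therefore hard to separate in that fit as well. With the macrophage score 6 and 4 pathway genes and 2474 genes in all were called. DESeq2 called 16 pathway genes lower in place of 10. Scaling to library size only gave 12 higher and 7 lower pathway genes and 4 of the 10 genes higher. Leaving out each library in turn gave 2 to 3 of the 10 genes higher and 0 to 1 lower, 7 to 11 pathway genes higher and 5 to 15 lower, and 3207 to 5507 genes in all. With WT replicates 1, 2 or 3 or KO replicate 3 left out, 6, 5, 6 and 6 pathway genes were lower. With the replicate number as a block, 3 of the 10 genes were higher and 0 lower, 7 and 8 pathway genes were called, and 3848 genes in all. The labels do not say that equal numbers share a litter or day. The correlation of deviations between same-numbered libraries was above 0.1 in 1 of 5 pairs, and 1 of 5 WT libraries was closest to its own number, so that the numbers were not taken to pair the mice. Alternatives planned for genes below the filter on low counts were not run, since all 10 genes passed it. The Y-linked score rests on genes with at most 0.0638 CPM and carries little information. Where calls changed, the cause was not tested. *Tlr5* had the fewest counts of the 10 genes, 15 to 48 per library.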
